A study of Homo sapiens with 4 samples.

Results

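The genes described here encode aminoacyl-tRNA synthetases, the enzymes that join each amino acid to its tRNA before translation. They were chosen by gene symbol from a list of 36, of which 20 encode cytosolic enzymes and 16 encode mitochondrial enzymes, whose symbols end in 2. Of these, 33 were found among the 12912 genes of the count table, 19 of them cytosolic and 14 mitochondrial, while VARS, VARS2 and SARS2 were not analysed here. All 33 passed the filter on low counts and were among the 12335 genes tested.

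The RNA came from 786-O, an established line of clear cell renal cell carcinoma in which VHL, the substrate receptor of an E3 ubiquitin ligase, is inactive. The control subline 786-O-Ctrl is labelled as the VHL-null wild type of the line, and 786-O-VHL carries VHL restoration, made with a retroviral vector for HA-tagged human VHL. By their titles the libraries of both groups come from triple-reporter (786-OTR) cells, which stably express a thymidine kinase, GFP and luciferase fusion from another retroviral vector, and all grew in RPMI1640 with serum and no further treatment. The comparison of 2 libraries per group asks which mRNA levels changed with VHL restoration, and since every library of a group comes from 1 subline, VHL and other differences between the sublines cannot be told apart.

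Library totals were 22141263 and 15714166 counts in 786-O-Ctrl and 2807779 and 16114120 counts in 786-O-VHL, so 786-O-VHL replicate 1 was the shallowest by far, and 3 counts in it corresponded to 1.02 CPM (counts scaled to a common library size). The columns of 786-O-Ctrl share 1 replicate number and are told apart here by depth. Below, a pair of 786-O-Ctrl values stands in the order deeper and shallower, and a pair of 786-O-VHL values in the order replicate 1 and replicate 2. Nothing in the labels says that the libraries of a group came from separate cultures, so p-values measure the spread between these libraries, which may be technical. VHL mRNA was at 42.9 and 43.9 CPM in 786-O-Ctrl and at 178 and 163 CPM in 786-O-VHL, and these counts cannot separate vector transcripts from the endogenous gene. All 9 renal markers examined, among them PAX8 and PAX2, were detected, and of the markers of blood, endothelial, fibroblast and liver cells only PECAM1, at 1 to 9 counts per library, and COL1A1, at 21 to 134 counts, were found in the table.

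Cells use separate enzymes for most amino acids in the cytosol and in mitochondria, and the mitochondrial enzymes are encoded in the nucleus too. KARS and GARS each provide both compartments from 1 gene, and QARS has no mitochondrial counterpart, because mitochondria make glutaminyl-tRNA by way of EARS2 and an amidotransferase. Many, but not all, of the cytosolic genes are known targets of ATF4, the transcription factor of the integrated stress response and of amino acid shortage. ATF4 binds a composite element shared with C/EBP factors, and its own production is set largely by translation. A list of 12 cytosolic members usually named as ATF4 targets (AARS, CARS, EPRS, GARS, IARS, LARS, MARS, NARS, SARS, TARS, WARS and YARS) was written from general knowledge, and it is called the ATF4 list below.

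The core of the composite element, TGATGNAA on either strand, was searched in promoter sequences of RefSeq (GRCh38.p14, 250 bases before to 50 after each start), which held 29 of the 33 members. DARS, LARS, YARS and AARS2 had no entry. The 8 matches are shown because 6 of the members that hold them rose, each with 11 bases on either side, 5′ to 3′ in the direction of the gene, and with the match in capitals.
AARS: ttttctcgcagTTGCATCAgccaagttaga
CARS: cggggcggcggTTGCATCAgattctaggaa
GARS: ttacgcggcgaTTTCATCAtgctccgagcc
IARS: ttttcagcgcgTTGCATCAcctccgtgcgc
MARS: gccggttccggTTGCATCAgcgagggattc
NARS: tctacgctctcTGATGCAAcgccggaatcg
TARS: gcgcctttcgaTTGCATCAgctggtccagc
YARS2: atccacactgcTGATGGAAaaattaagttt

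These stretches lie at chr16:70289675-70289704 (AARS, minus strand), chr11:3057407-3057436 (CARS, minus strand), chr7:30594834-30594863 (GARS, plus strand), chr9:92293692-92293721 (IARS, minus strand), chr12:57488053-57488082 (MARS, plus strand), chr18:57621804-57621833 (NARS, minus strand), chr5:33440956-33440985 (TARS, plus strand) and chr12:32756076-32756105 (YARS2, minus strand) of GRCh38. In 6 of the 8, namely AARS, CARS, IARS, MARS, NARS and TARS, the match reads TTGCATCA or its reverse complement TGATGCAA, and in these 6 the wildcard base is thus the same. The match began within 15 bases of the start of the gene in CARS, IARS, MARS, NARS and TARS, 33 bases before it in GARS, and 187 and 197 bases before it in AARS and YARS2.

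Of the 10 members of the ATF4 list with a promoter, 7 held a match, as did 0 of the other 6 cytosolic members and 1 of 13 mitochondrial members, where 4.46% of all 27305 genes with a promoter did. The list names known targets of ATF4, which binds this element, and was written with the rise of such targets in these libraries known. The contrast between members on and off the list is thus no independent evidence about ATF4. SARS and WARS had no match in this window, which says only that these letters are not there. Of the other motifs searched on both strands, GCGTG, a core that hypoxia response elements can have, was found in 13 of 16 cytosolic and 11 of 13 mitochondrial members and in 40.6% of all genes, and ACGTG in 4, 5 and 24.9%. The shares of all genes are over the 27305 with a promoter, far more than the 12335 tested here, and were not matched for expression or base content. A role of these motifs was not tested. The E-box CACGTG, which contains ACGTG, was found in 1 of the 16, 3 of the 13 and 8.77% of all genes. The STAT site TTCNNNGAA was found in 3, 2 and 9.38%, and GAAANNGAA, a part of the interferon-stimulated response element, in 3, 1 and 9.86%. WARS held both of the last, in 1 of its 2 promoters each.

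Of the mitochondrial enzymes, 9 of 14 were lower in 786-O-VHL (6 of 14 with DESeq2), while the cytosolic enzymes moved in both directions and rose by more than they fell (plot of fold changes). Of 19 cytosolic members, 10 were higher in 786-O-VHL, 6 were lower and 3 were not called at an FDR under 0.05 in edgeR's quasi-likelihood test with Benjamini-Hochberg adjustment over all genes. Of all genes tested, 32.6% were higher and 31.9% were lower by the same rule, 64.5% in all. Of 14 mitochondrial members, 1 was higher, 9 were lower and 4 were not called. The log2 fold change of 786-O-VHL over 786-O-Ctrl ran from -0.99 to 1.83 over the cytosolic members with a median of 0.17, and from -1.23 to 0.36 over the mitochondrial members with a median of -0.40, beside a median of 0.017 over all genes tested. The cytosolic median is the value of GARS, the least changed of the members that rose, and it was 0.098 without the deeper 786-O-Ctrl library, between 0.12 and 0.25 without any of the others, and 0.42 when KARS, GARS and QARS were left out.

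**Figure D1:**
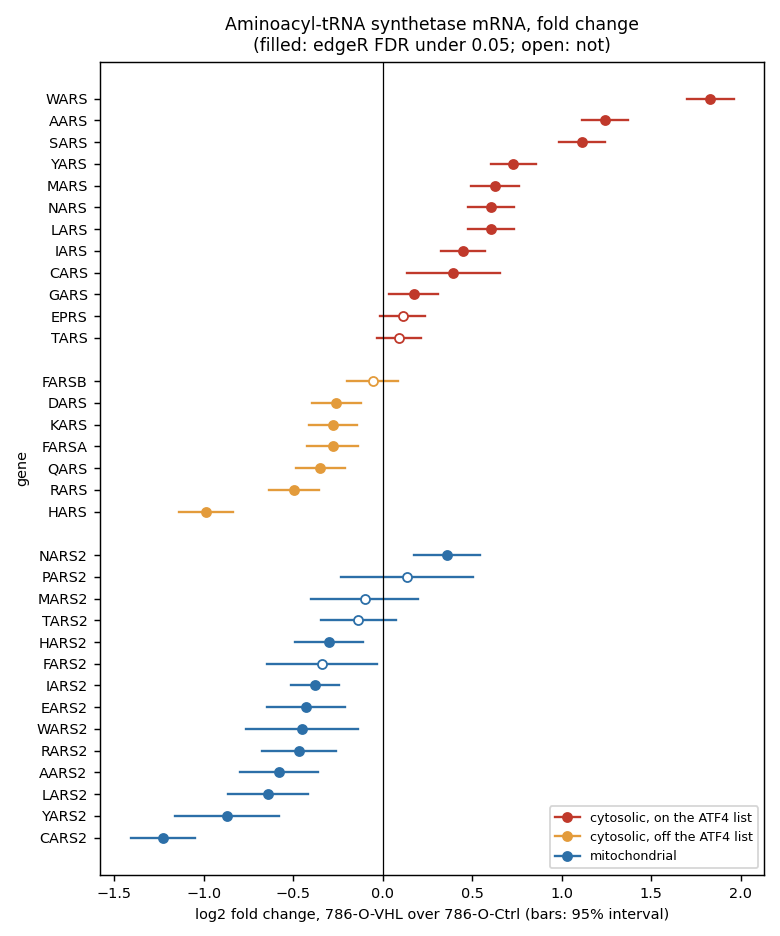
Log2 fold change (x axis) of each of the 33 genes (y axis), with bars for the 95% interval of the edgeR fit, and filled points for an FDR under 0.05. The 12 cytosolic genes of the ATF4 list lie between 0.090 and 1.83, the 7 other cytosolic genes between -0.99 and -0.057, and the 14 mitochondrial genes between -1.23 and 0.36.

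The split within the cytosolic enzymes followed the ATF4 list. Of its 12 members, 10 were higher and 2, EPRS and TARS, were not called, with a median log2 fold change of 0.61. Of the 7 members off the list, 6 were lower and 1, FARSB, was not called, with a median of -0.28. Both 786-O-VHL libraries were above both 786-O-Ctrl libraries for all 12 members of the list, and below for 6 of the 7 others, where 40.8% of all genes tested lay above in this way and 39.2% below. The list was written when ATF4 targets were already known to have risen in these libraries, so the split is no independent evidence about ATF4. Leaving out 1 library at a time, between 8 and 12 members of the list were higher and 6 others were lower each time.

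WARS, the tryptophanyl enzyme (ENSG00000140105.18), spans 100800127 to 100843142 of chromosome 14 (GRCh37, minus strand) and changed most of all members. It was at 143 and 155 CPM in 786-O-Ctrl and at 525 and 532 CPM in 786-O-VHL, so the groups stand far apart. That is 149 ± 9.15 against 529 ± 4.55 CPM (SD, n = 2 each), a 3.56-fold rise and a log2 fold change of 1.83 (standard error, SE = 0.0646 and edgeR FDR = 1.81e-19), the 438th largest rise of the 12335 genes tested. WARS is also known as a gene induced by interferon γ. WDR25 and others on the opposite strand overlap it, and reads from these cannot be told apart where counting ignored strand.

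AARS, the alanyl enzyme (ENSG00000090861.15, chromosome 16 of GRCh37, 70285886 to 70323610, minus strand), was at 398 and 426 CPM in 786-O-Ctrl and at 945 and 996 CPM in 786-O-VHL. Its log2 fold change was 1.24 (SE = 0.062 and edgeR FDR = 3.61e-16), a 2.36-fold rise, and DDX19B overlaps it on the opposite strand. SARS, the seryl enzyme (ENSG00000031698.13, chromosome 1, 109756540 to 109780804, plus strand), was at 233 and 255 CPM in 786-O-Ctrl and at 523 and 531 CPM in 786-O-VHL. It rose 2.16-fold, with a log2 fold change of 1.11 (SE = 0.0634 and edgeR FDR = 7.08e-15), and no annotated gene overlaps it. In all 3 of these genes the distance between the groups was many times that between the libraries of a group.

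YARS, MARS, NARS and LARS, which charge the tRNAs of tyrosine, methionine, asparagine and leucine, formed a closer group. YARS was at 255 and 266 CPM in 786-O-Ctrl and at 428 and 434 CPM in 786-O-VHL, for a log2 fold change of 0.73 (SE = 0.0614). MARS was at 253 and 267 CPM against 376 and 420.2 CPM, a log2 fold change of 0.63 (SE = 0.065). The 3′ end of MARS is overlapped on the opposite strand by DDIT3, a stress-induced transcription factor gene that itself went from 19.2 and 19.3 CPM to 95.3 and 104 CPM, and its part in the MARS counts was not tested. NARS was at 181 and 188 CPM against 286 and 277 CPM, and LARS at 196 and 195 CPM against 292 and 301 CPM, with a log2 fold change of 0.61 for each (SE 0.0629 and 0.062). The edgeR FDR was 3.01e-11 for YARS and between 1.56e-09 and 1.97e-09 for the others, and in each the groups did not overlap.

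IARS, the isoleucyl enzyme, was at 447 and 451 CPM in 786-O-Ctrl and at 620 and 608 CPM in 786-O-VHL, for a log2 fold change of 0.45 (SE = 0.0598 and edgeR FDR = 1.86e-07). CARS, the cysteinyl enzyme, was at 16.4 and 15.8 CPM against 20.7 and 21.4 CPM, a log2 fold change of 0.39 (SE = 0.127 and edgeR FDR = 0.00809). The level of CARS is uncertain, because the table holds a second identifier of the same symbol, with 2 to 10 counts per library, and reads shared between near-identical copies could have been split or dropped. GARS, the glycyl enzyme, changed least of those called, with a log2 fold change of 0.17 (SE = 0.0663 and edgeR FDR = 0.0244). EPRS, which carries the glutamyl and prolyl enzymes in 1 protein, had a log2 fold change of 0.11 (95% interval -0.016 to 0.24, edgeR FDR = 0.118), and TARS, the threonyl enzyme, one of 0.090 (95% interval -0.033 to 0.21, edgeR FDR = 0.194).

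HARS, the histidyl enzyme (ENSG00000170445.15, chromosome 5 of GRCh37, 140052620 to 140071122, minus strand), fell most among the cytosolic members. It was at 97.5 and 96.7 CPM in 786-O-Ctrl and at 49.5 and 48.8 CPM in 786-O-VHL, with the libraries of each group almost level. That is a 1.98-fold lower level, with a log2 fold change of -0.99 (SE = 0.0742 and edgeR FDR = 2.64e-12). HARS lies head to head with its mitochondrial partner HARS2, and their gene models overlap at the starts, so that reads there could be counted for either where strand was ignored.

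RARS, the arginyl enzyme, had a log2 fold change of -0.50 (SE = 0.0682 and edgeR FDR = 3.24e-07). QARS, the glutaminyl enzyme, had a log2 fold change of -0.35 (edgeR FDR = 4.4e-05). FARSA, KARS and DARS fell by 0.28, 0.28 and 0.26 on the log2 scale, with edgeR FDR values from 0.000553 to 0.00126. FARSA and FARSB are the α and β subunits of 1 phenylalanyl enzyme, and FARSB had a log2 fold change of -0.057 (95% interval -0.20 to 0.084). When libraries were scaled by their totals alone, the median over all genes rose to 0.15, FARSA, KARS and DARS kept their direction but were no longer called, and FARSB changed sign to 0.077. After thinning of all libraries to the depth of the shallowest, DARS and FARSA both had a log2 fold change of -0.11 and were not called (edgeR FDR = 0.353 and 0.408).

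**Figure D2:**
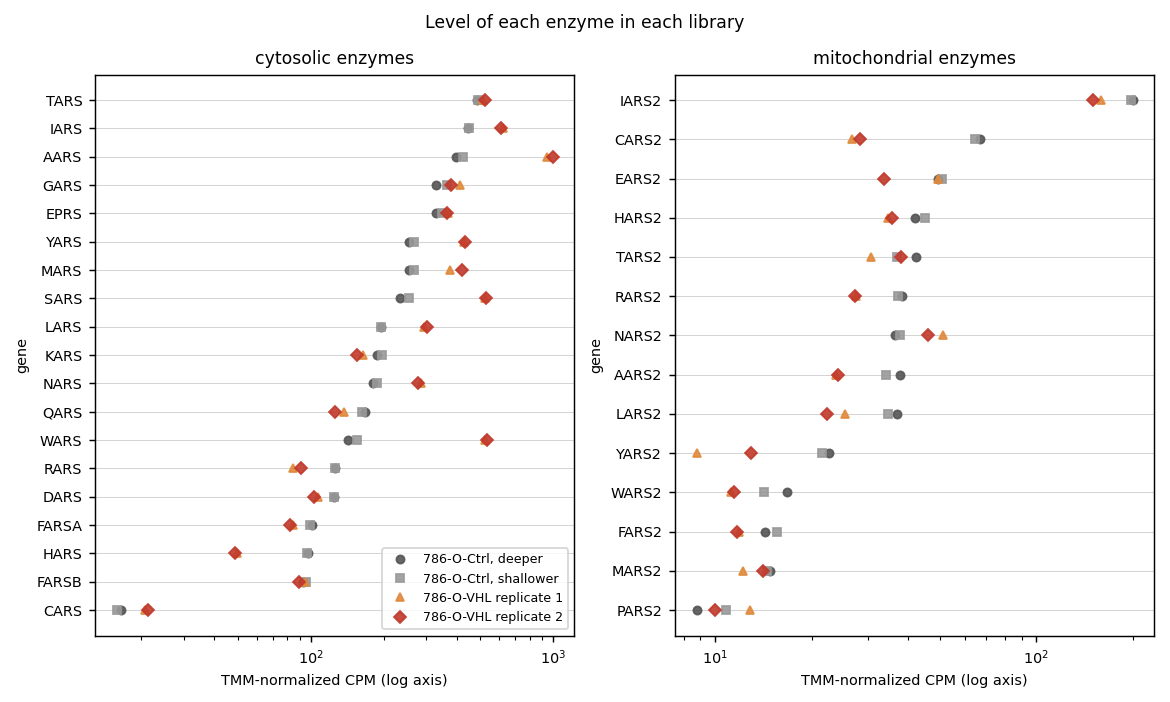
TMM-normalized CPM (log x axis) of each gene (y axis, by mean level in 786-O-Ctrl) in each of the 4 libraries, with the cytosolic enzymes on the left and the mitochondrial enzymes on the right. The points of WARS, AARS and SARS in 786-O-VHL lie far to the right of those in 786-O-Ctrl, those of HARS and CARS2 far to the left, and for EARS2, replicate 1 of 786-O-VHL lies among the 786-O-Ctrl points.

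Among the mitochondrial enzymes, CARS2, the cysteinyl enzyme (ENSG00000134905.17, chromosome 13 of GRCh37, 111293759 to 111365950, minus strand), fell most, from 66.6 and 64.4 CPM in 786-O-Ctrl to 26.8 and 28.3 CPM in 786-O-VHL. Its level was 2.34-fold lower, with a log2 fold change of -1.23 (SE = 0.088 and edgeR FDR = 1e-12). YARS2, the tyrosyl enzyme, was at 22.7 and 21.5 CPM against 8.82 and 12.9 CPM, a log2 fold change of -0.87 (SE = 0.142 and edgeR FDR = 5.21e-06). Its values in 786-O-VHL were further apart than those of most members, and replicate 1 held only 26 counts.

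LARS2, the leucyl enzyme, was at 36.95 and 34.6 CPM in 786-O-Ctrl and at 25.4 and 22.3 CPM in 786-O-VHL, for a log2 fold change of -0.64 (SE = 0.109 and edgeR FDR = 8.51e-06). AARS2, the alanyl enzyme, was at 37.7 and 34.1 CPM against 23.7 and 24.2 CPM, a log2 fold change of -0.58 (SE = 0.107 and edgeR FDR = 2.86e-05). IARS2, the isoleucyl enzyme and by CPM the most abundant of this class, was at 199 and 198 CPM against 159 and 149.6 CPM, a log2 fold change of -0.38 (SE = 0.0648 and edgeR FDR = 1.06e-05). In these 3 genes both 786-O-VHL libraries lay below both 786-O-Ctrl libraries.

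RARS2, HARS2 and WARS2, for arginine, histidine and tryptophan, had log2 fold changes of -0.47, -0.30 and -0.45. WARS2 was at 16.8 and 14.2 CPM in 786-O-Ctrl and at 11.2 and 11.5 CPM in 786-O-VHL (edgeR FDR = 0.0115). NARS2, the asparaginyl enzyme, went the other way, from 36.5 and 37.5 CPM to 51.2 and 46.1 CPM, a log2 fold change of 0.36 (SE = 0.0902 and edgeR FDR = 0.00101). FARS2, MARS2, TARS2 and PARS2, for phenylalanine, methionine, threonine and proline, were not called, with log2 fold changes of -0.34, -0.10, -0.14 and 0.13. The edgeR FDR of FARS2, 0.0506, was next to the threshold, and it was called in 4 of the 12 alternative fits.

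The change of EARS2 and that of GARS depended on 1 library. EARS2, the glutamyl enzyme, was at 49.4 and 50.8 CPM in 786-O-Ctrl and at 49.5 and 33.5 CPM in 786-O-VHL, and its log2 fold change of -0.43 (edgeR FDR = 0.00098) was -0.021 (edgeR FDR = 0.91) without 786-O-VHL replicate 2. GARS was at 329.8 and 366 CPM against 412 and 378 CPM, and its log2 fold change was 0.098 (edgeR FDR = 0.49) without the deeper 786-O-Ctrl library. Calls of CARS, HARS2 and WARS2 were lost in fits of 3 libraries while their log2 fold changes stayed within 0.35 to 0.42, -0.33 to -0.26 and -0.49 to -0.32 in those fits. CARS was no longer called without either 786-O-Ctrl library or without 786-O-VHL replicate 2, HARS2 without the shallower 786-O-Ctrl library or 786-O-VHL replicate 2, and WARS2 without the deeper 786-O-Ctrl library or 786-O-VHL replicate 2, with edgeR FDR values from 0.0642 to 0.232. Without the shallow 786-O-VHL replicate 1, EPRS, TARS and FARS2 were called, at log2 fold changes of 0.11, 0.10 and -0.34.

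Several partners that charge the same amino acid moved in opposite directions. Of 14 pairs with both genes in the table, 6 had a cytosolic member that was higher and a mitochondrial member that was lower, namely those for tryptophan, alanine, tyrosine, cysteine, leucine and isoleucine (plot of partner ratios). In the tryptophan and cysteine pairs, the calls of WARS2 and CARS were lost with DESeq2 (DESeq2 FDR = 0.112 and 0.125). The log2 ratio of CPM of WARS over WARS2 was 3.09 and 3.45 in 786-O-Ctrl, against 5.55 and 5.54 in 786-O-VHL, a 4.84-fold shift. The ratio of AARS over AARS2 shifted 3.53-fold, that of YARS over YARS2 3.42-fold and that of CARS over CARS2 3.10-fold. The ratio was above in both 786-O-VHL libraries for 10 pairs, below for 1 and overlapping for 3. Of single genes tested, 40.8% lay above in this way and 39.2% below, and no such share was computed for ratios. The 14 pairs hold 13 distinct cytosolic genes, because EPRS is paired with both EARS2 and PARS2. EPRS over EARS2 is among the 10, though the change of EARS2 depended on 1 library. A two-sided exact permutation test of 2 against 2 libraries gives no p below 0.333, which each of the 11 pairs without overlap reached, so no single ratio could pass a threshold of 0.05.

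Other pairs moved in the same direction. HARS and HARS2 both fell, HARS by more, and their log2 ratio went from 1.22 and 1.10 to 0.52 and 0.46. RARS and RARS2 both fell, with overlapping log2 ratios of 1.72 and 1.76 in 786-O-Ctrl, against 1.61 and 1.74 in 786-O-VHL. NARS and NARS2 both rose, with log2 ratios of 2.31 and 2.32 against 2.48 and 2.59. These ratios are of CPM without a correction for length, so their level says nothing of which partner has more transcripts.

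**Figure D3:**
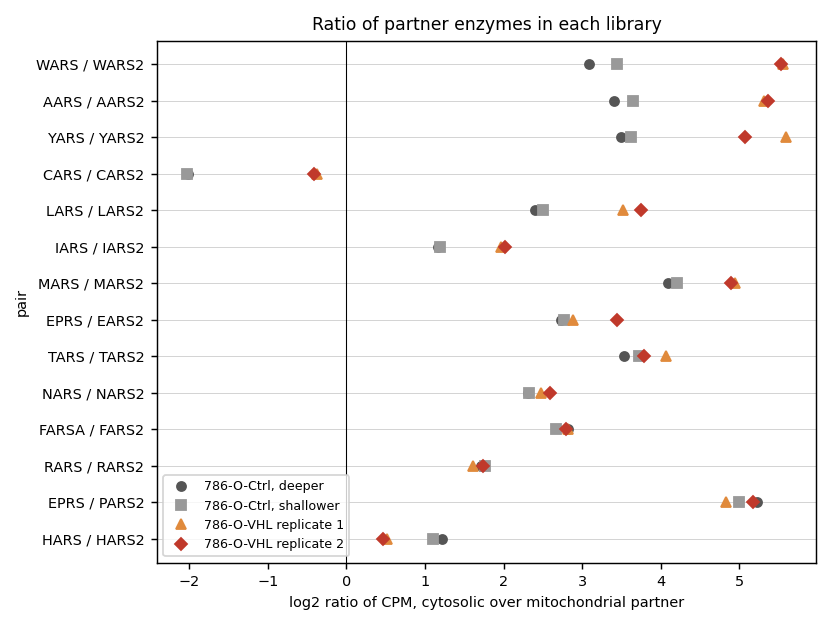
Log2 ratio of CPM of each cytosolic gene over its mitochondrial partner (x axis) for 14 pairs (y axis, by size of the shift) in each of the 4 libraries. The ratios of WARS, AARS, YARS and CARS lie furthest to the right in 786-O-VHL relative to 786-O-Ctrl, and HARS is the only pair in which both 786-O-VHL libraries lie to the left.

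Summed over the class, the 19 cytosolic genes took 4164 and 4324 CPM in 786-O-Ctrl and 6030.2 and 6081 CPM in 786-O-VHL. The 14 mitochondrial genes took 626 and 615 CPM against 485 and 465 CPM. The ratio of the sums was thus 6.65 and 7.03 in the control libraries, against 12.4 and 13.1 with VHL restored. AARS, WARS and SARS, singled out after their rise was seen, held 18.6% and 19.4% of the cytosolic counts in 786-O-Ctrl, against 33.1% and 33.9% in 786-O-VHL (plot of summed levels). In bulk RNA a change of mRNA per cell and a change in the share of cells that express a gene cannot be told apart.

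**Figure D4:**
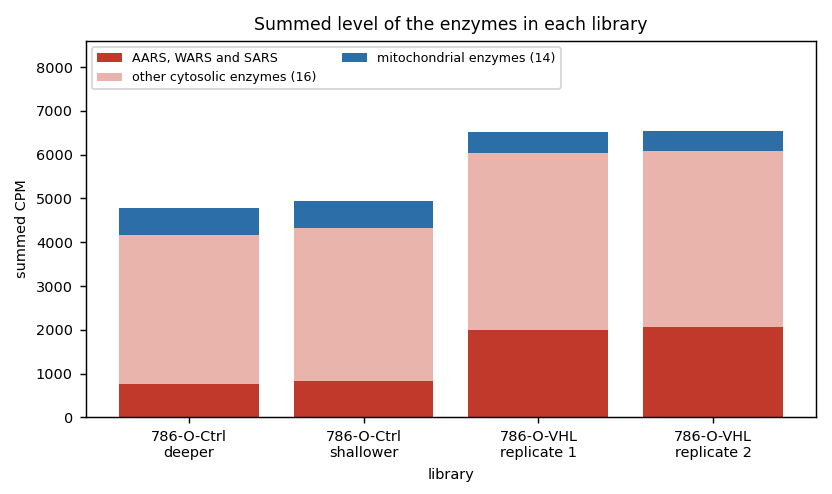
Summed TMM-normalized CPM (y axis) of the enzymes in each library (x axis), stacked as AARS, WARS and SARS, the 16 other cytosolic genes and the 14 mitochondrial genes. The cytosolic part is larger in both 786-O-VHL libraries, with most of the added height in AARS, WARS and SARS, and the mitochondrial part is smaller.

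Per kilobase of the canonical transcript (GENCODE v44 on GRCh37), the cytosolic members ranged from 5.89 (CARS) to 182 (TARS) CPM per kb in 786-O-Ctrl, with TARS, GARS and SARS the highest. In 786-O-VHL the highest were AARS at 282, SARS at 275 and WARS at 200.3 CPM per kb, and WARS went from the 13th to the 3rd place among the 19. The gap between AARS and SARS there was smaller than the distance between the AARS libraries. The mitochondrial members ranged from 4.16 (PARS2) to 56.2 (IARS2) CPM per kb in 786-O-Ctrl and from 4.06 (WARS2) to 43.7 (IARS2) in 786-O-VHL. CARS2 was second in 786-O-Ctrl at 35.6 CPM per kb, and NARS2 was second in 786-O-VHL at 19.4 CPM per kb.

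The structural classes of the enzymes, which the choice of members did not use, both held members of either direction in the cytosol. Of 8 cytosolic class I enzymes, 6 were higher and 2 were lower, and of 10 cytosolic class II enzymes, 4 were higher and 4 were lower. EPRS holds domains of both. In mitochondria, 7 of 8 class I enzymes were lower and 0 higher, and of 6 class II enzymes 2 were lower and 1 was higher. The multi-synthetase complex, in which 8 cytosolic enzymes are held together by scaffold proteins, held members of either direction. Of all genes tested, 32.6% were higher and 31.9% lower. IARS, LARS and MARS were higher, DARS, KARS, QARS and RARS were lower, and EPRS was not called, for a median of -0.074, while of 11 enzymes outside the complex 7 were higher and 2 were lower, for a median of 0.39. Of the scaffold proteins, AIMP1 and AIMP2 were higher, with log2 fold changes of 0.38 and 0.31 (edgeR FDR = 7.64e-05 and 0.00264), and EEF1E1 had one of 0.14 (edgeR FDR = 0.568).

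Genes that handle tRNA at other steps, and related enzymes, were followed as well. Of 11 tested genes of tRNA export, editing, end processing and related enzymes, 5 were higher, 0 were lower and 6 were not called. Their median log2 fold change was 0.51, and of all genes tested 32.6% were higher and 31.9% lower. Among the 6 not called was TARSL2, a threonyl-tRNA synthetase-like gene outside the 36 listed, with a log2 fold change of -0.024. SEPSECS, which makes selenocysteinyl-tRNA, XPOT, the exporter of tRNA from the nucleus, and DTD1, which removes D-amino acids from tRNA, rose most, with log2 fold changes of 1.504, 0.69 and 0.66. XPOT was at 214 and 241 CPM in 786-O-Ctrl and at 371 and 364 CPM in 786-O-VHL. Of 12 tested genes of mitochondrial translation other than the synthetases, 4 were higher and 2 were lower, with a median of -0.026, where 32.6% of all genes tested were higher and 31.9% lower. The initiation factor MTIF2 (0.50), the elongation factor GFM2 (0.49) and the amidotransferase subunit QRSL1 (0.39) rose, and the release factor MTRF1L (-0.34) and the elongation factor TUFM (-0.28) fell.

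Among 18 tested genes of the integrated stress response, 14 were higher and 1 was lower, with a median log2 fold change of 0.89. NUPR1, DDIT3 and PHGDH rose most, with log2 fold changes of 3.40, 2.40 and 2.29, of which PHGDH rests on 1 to 19 counts per library. ATF5 fell by 0.50 on the log2 scale. ATF4 mRNA was at 483 and 499.6 CPM in 786-O-Ctrl and at 499 and 549 CPM in 786-O-VHL, for a log2 fold change of 0.10 (95% interval -0.027 to 0.23, edgeR FDR = 0.161). Of 7 tested genes of the interferon γ response, 6 were higher. IRF1, SOCS1 and CIITA rose most, with log2 fold changes of 1.98, 1.84 and 1.63. The part of either response in the changes of the synthetases was not tested.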

How the data were processed

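Gene expression was measured by RNA-seq in 4 libraries, 2 per subline. Raw counts per gene were deposited by the authors after alignment to hg19, without normalization. The submitters' processing notes name CASAVA and STAR without a role. The way reads were counted, with its strand setting and gene models, is not given in the sources used here. Members and gene lists were chosen with earlier results of these data known.

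The fit used edgeR 4.0.16 (R 4.3.3) with filterByExpr (minimum count 10), TMM scaling and the quasi-likelihood F test, adjusted by Benjamini-Hochberg over 12335 genes. Standard errors are those implied by the F statistic. Of 2 entries named CARS, the one with coordinates in GRCh37 was used. Coordinates and overlaps come from GENCODE v44 lifted to GRCh37, where 24 of 33 members overlap another gene. Per-library values are given for members past FDR 0.05 with an absolute log2 fold change of at least 0.5, for the smallest p per class and direction and for partners called in opposite directions. Of each other list, at most 3 genes per direction with the largest fold change are named. Also named were genes singled out after their values were seen, namely ATF4, DDIT3 as the neighbor of MARS, and members that lost their call without 1 library.

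The analysis was tested on simulated data. Protein identity between partners, planned as a description, was not computed. Replicates differed by more than sampling noise (chi-square per degree of freedom 2.26 and 2.82). Intervals and limits cover counting error or the fitted spread only. Alternatives were DESeq2 1.42.0, limma-voom (limma 3.58.1), RLE factors, library totals, other filters, binomial thinning to the shallowest library, each library left out, and an FDR of 0.01. The alternatives for the ATF4 list were chosen after seeing the data. Some genes are not reported here.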

Additional observations from a re-analysis of the deposited data

How the results depend on the processing

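Of 33 members, 18 kept their direction and their side of the FDR threshold under all 12 alternatives, among them WARS, AARS, SARS, HARS and CARS2. Over all members, 28 of 396 alternative values lost a call, 8 gained one and 3, none of them called, changed sign. FARSB and MARS2 changed sign to 0.077 and 0.031 with library totals alone, and PARS2 to -0.0081 without the deeper 786-O-Ctrl library, within a range up to 0.40 over the libraries left out. With library totals alone, 3 in place of 6 cytosolic members were lower, all 3 of them off the ATF4 list, the medians were 0.31 (cytosolic) and -0.27 (mitochondrial), and the log2 ratios of summed CPM went from 0.51 to 0.65 and from -0.39 to -0.25, since this scaling raised the median of all genes to 0.15. After thinning to the shallowest library, 4 in place of 6 cytosolic members and 5 in place of 9 mitochondrial members were lower, DARS and FARSA were at -0.11, the mitochondrial median was -0.26, and the cytosolic median exceeded it by 0.47 in place of 0.58. The means were further apart than the medians, with a cytosolic mean of 0.28 and a difference of 0.66. Without KARS, GARS and QARS the cytosolic median was 0.42 and the difference 0.82. Over fits lacking 1 library each, the cytosolic median was between 0.098 and 0.25, the mitochondrial median between -0.43 and -0.36 and their difference between 0.49 and 0.63, and between 6 and 10 mitochondrial members were lower, with 6 without 786-O-VHL replicate 2. DESeq2 called 8 cytosolic members of the ATF4 list as higher, without CARS and GARS, and 6 in place of 9 mitochondrial members as lower, without EARS2, HARS2 and WARS2. The causes were not tested, other than the scaling and the loss of counts by construction. No paired analysis was possible because both 786-O-Ctrl columns carry the same replicate number. Mitochondrial members had few counts in 786-O-VHL replicate 1, between 26 for YARS2 and 468 for IARS2, which limits what can be said of changes in them.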
